A study of Mus musculus with 4 samples.

Results

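The genes described here are 32 members of the ATF4 stress response and of the serine and one-carbon enzymes it drives, out of 20692 genes in a ribosome profiling table of mouse cells. They were chosen by name, with earlier results of these data known. Their RefSeq coding sequences were looked up by symbol and summed per gene, and amino acid transporters and tRNA synthetases were left out. All 32 are in the table, 26 of them had a read, and the same 26 passed the filter used throughout, a mean of at least 25 normalised counts over the 4 libraries, as 9670 genes in all did.

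Ribosome profiling sequences the mRNA fragments that ribosomes protect from nuclease, so a count reflects both how much mRNA a gene has and how heavily it is translated. 4 libraries were made, 1 for each group: wild-type (WT) embryonic stem cells (ESCs), Mettl3-KO ESCs, WT embryoid bodies (EBs) and Mettl3-KO EBs, all of strain C57BL/6. Mettl3 is the catalytic subunit of the enzyme that writes N6-methyladenosine (m6A) on mRNA, and KO stands below for Mettl3-KO. The ESCs were kept in the naive ground state in serum-free N2B27 medium with LIF and the inhibitors CHIR99021 and PD0325901, and the EBs, aggregates in which ESCs differentiate, were grown without attachment in a serum medium that contained L-glutamine and non-essential amino acids. Stage and medium therefore cannot be told apart, and the labels give the EB culture as a span of days without the day of each library. With 1 library a group no difference below has a replicate check, and intervals cover counting error only.

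In the stress response that ATF4 leads, the eIF2 kinases phosphorylate the initiation factor eIF2 when amino acids run short, proteins misfold in the endoplasmic reticulum, haem is lacking or viral RNA is present. Most translation then slows, while Atf4 mRNA, whose upstream reading frames hold ribosomes back in unstressed cells, is translated more. ATF4 protein pairs with C/EBP partners on composite C/EBP-ATF response elements and switches on genes for amino acid synthesis, the mitochondrial folate pathway and feedback control of the response.

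The WT and KO libraries gave 8570204 and 11455539 reads on genes in ESCs, and 4234361 and 4075850 in EBs. Coding sequence of Mettl3 itself stood at 563 and 298 normalised counts in WT and KO ESCs and 429 and 327 in WT and KO EBs. Both KO libraries were lower but far from 0, and the sources used here do not give the deleted part. The libraries also differed in Y-linked genes. Eif2s3y stood at 275 and 435 in WT and KO ESCs against 4.68 and 4.48 in WT and KO EBs, and Kdm5d at 211 in KO ESCs against 1.56, 1.56 and 0 in WT ESCs, WT EBs and KO EBs. Ddx3y stood at 105 and 619 in WT and KO ESCs and at 9.35 and 49.3 in WT and KO EBs. Uty stood at 60.7 and 208 in WT and KO ESCs and at 0 and 13.4 in WT and KO EBs, so these genes also differed between the EB libraries. The sources used here do not say whether the ESCs and EBs, or the genotypes, came from 1 parental line, so a difference between lines cannot be told apart from genotype or stage.

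The labelled cell types were checked against their markers. Summed over 12 naive pluripotency genes the level was 33607 and 22664 normalised counts in WT and KO ESCs, and 16123 and 25665 in WT and KO EBs, with Tbx3 at 0 in all 4. Summed over 16 visceral endoderm genes, the outer layer of an EB, it was 7705, 6034, 74415 and 18315 in that order, with Dab2 at 0 in all 4 and Ttr at 0 in WT ESCs. Summed over 18 fibroblast and matrix genes it was 6108, 8435, 11644 and 20496, with Fn1, Pdgfra, Pdgfrb, Dcn and Postn at 0 in all 4. Summed over 5 general pluripotency genes it was 8255, 7112, 10880 and 13827, with Sall4 at 0 in all 4. Over 6 neural genes it was 1835, 1899, 703 and 1293, with Pax6, Map2 and Ncam1 at 0 in all 4. By these sums KO EBs carried less visceral endoderm signal and more signal of the other kinds than WT EBs. Among measured markers Apoe went the other way (12708 in WT and 14998 in KO EBs), as did Sparc (8686 and 5238), Dppa3, Klf5, Lin28a and Sox1. In a bulk library, fewer cells of a type and fewer footprints per cell cannot be told apart. Markers at 0 in all 4 libraries are not read as absent, because how reads on sequence shared between entries were counted is not stated.

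6 members were listed at 0 in every library. They are Shmt2 and Mthfd1l, enzymes of the mitochondrial folate pathway, Aldh18a1 of proline synthesis, Cbs of transsulfuration, the transcription factor Jdp2 and the lipoprotein receptor Vldlr. In Shmt2, Mthfd1l, Aldh18a1 and Jdp2 100% of the 28-base stretches of coding sequence, the length taken for a footprint, are shared between RefSeq entries of the same gene. The shares in Cbs and Vldlr are 99.7% and 98.9%. How reads on shared stretches were counted is not stated in the sources used here. The deposited counts do keep a class of reads named ambiguous. It held 8.71% and 10.5% of reads in WT and KO ESCs and 9.74% and 8.62% in WT and KO EBs. If reads on shared stretches were set aside in that class, these members could take few or no reads, so their 0 is not read as absence of translation. Psat1 lay at 97.4% and was read from 57 unshared stretches. In Phgdh 80.5% of stretches, in Xpot 46.1%, in Ppp1r15a 19.9% and in Gpt2 13.0% have an exact copy elsewhere in the genome, where reads may be lost as not unique. The other 21 measured members have under 10% of either kind.

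Promoter sequence from RefSeq (GRCm38.p6, 250 bases before to 50 after each transcript start) was found for 30 members, all but Aldh1l2 and Cth. The core of the C/EBP-ATF response element, searched as TGATGNAA on both strands, was present in 11 of the 30 members (36.7%), against 4.51% of 27025 genes with a window. Within the last 150 bases before the start the shares were 26.7% and 2.54%. A second motif, the cyclic AMP response element form TGACGNCA that ATF family dimers bind, was present in 2 members, Cebpb and Ppp1r15a (6.67%), against 3.67% of genes, and the motifs overlapped in 0 member windows. The members were chosen as genes of the ATF4 response, so a higher share of this core than over all genes is not an independent result. A match is a description of the letters and not a measured binding site. The 40 bases around the core are shown for 8 members whose footprints are described below, oriented so that the core reads TGATGNAA and with the core in capitals, because the core letter at the sixth position and the flanks are what differ between them.
Atf3: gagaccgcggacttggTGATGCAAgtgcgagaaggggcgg
Nupr1: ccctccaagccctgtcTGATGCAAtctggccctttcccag
Chac1: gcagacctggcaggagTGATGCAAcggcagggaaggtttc
Herpud1: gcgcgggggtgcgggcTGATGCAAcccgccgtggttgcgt
Asns: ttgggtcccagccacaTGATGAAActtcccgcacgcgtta
Pycr1: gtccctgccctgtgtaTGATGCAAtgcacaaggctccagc
Pck2: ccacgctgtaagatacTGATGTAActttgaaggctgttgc
Fgf21: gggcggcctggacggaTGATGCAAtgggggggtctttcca

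In the orientation printed, the Atf3 stretch is the plus strand of chr1:191183420-191183459 and that of Nupr1 the plus strand of chr7:126625557-126625596. Chac1 is the minus strand of chr2:119351033-119351072, Herpud1 the minus strand of chr8:94386301-94386340 and Asns the minus strand of chr6:7693209-7693248. Pycr1 is the minus strand of chr11:120643828-120643867, Pck2 the minus strand of chr14:55540147-55540186 and Fgf21 the plus strand of chr7:45615606-45615645. Only Asns and Pycr1 among these 8 carry the core on the strand of the gene. The core begins 23 bases before the start in Asns and between 103 and 193 bases before it in the other 7. The core also occurs in Trib3, 15 bases after the start, and in Jdp2 and Vldlr, both listed at 0.

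The windows of Chac1 and Asns are printed whole, on the strand of the gene, to show how the core can sit far from the start and on the opposite strand, where it reads TTGCATCA, or next to the start. Chac1 is the plus strand of chr2:119350992-119351291 and Asns the minus strand of chr6:7693160-7693459, with the core in capitals.
Chac1: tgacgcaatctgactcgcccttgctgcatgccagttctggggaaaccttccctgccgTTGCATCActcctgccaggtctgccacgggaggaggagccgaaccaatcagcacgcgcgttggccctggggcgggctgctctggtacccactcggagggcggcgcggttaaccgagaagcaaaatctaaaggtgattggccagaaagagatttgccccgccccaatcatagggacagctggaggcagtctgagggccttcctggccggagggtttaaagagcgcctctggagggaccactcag
Asns: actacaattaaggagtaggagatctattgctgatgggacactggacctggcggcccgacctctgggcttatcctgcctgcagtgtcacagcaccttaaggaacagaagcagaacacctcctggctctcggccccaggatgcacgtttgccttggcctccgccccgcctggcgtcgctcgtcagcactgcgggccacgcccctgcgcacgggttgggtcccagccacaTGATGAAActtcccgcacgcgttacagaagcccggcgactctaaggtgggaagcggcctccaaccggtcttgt

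**Figure D1:**
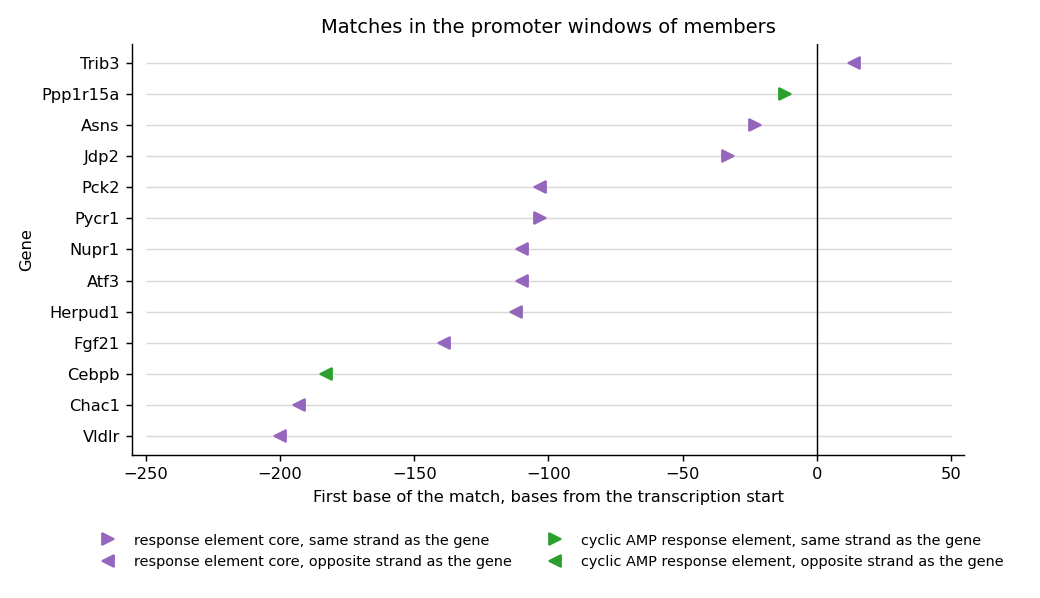
Place of the TGATGNAA core and of the TGACGNCA motif in the promoter window of each member that has one. The x axis is the distance from the transcript start in bases, and each row is a gene; 8 of the 11 members with the core have it within the last 150 bases before the start.

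The members spanned a wide range of abundance. On a length-corrected scale (RPKM, taken over countable coding sequence and reads on genes), Asns was the highest member in every library but KO EBs, where Ddit4 at 671 lay above it at 620.4. In WT ESCs Asns stood at 1224, and Aldh1l2 and Fgf21 were lowest there at 5.44 and 1.93. Atf4 stood at 361, Ddit4 at 485 and Nupr1 at 467 in that library. All values that follow are normalised counts, as the authors scaled them between libraries, and they compare libraries within 1 gene, not genes with each other.

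Ordering the 4 libraries for each of the 26 measured members put WT EBs lowest in 15, against 25.6% of all tested genes. WT ESCs were highest in 11 and KO EBs in another 11, against 25.3% and 25.7% of all tested genes.

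**Figure D2:**
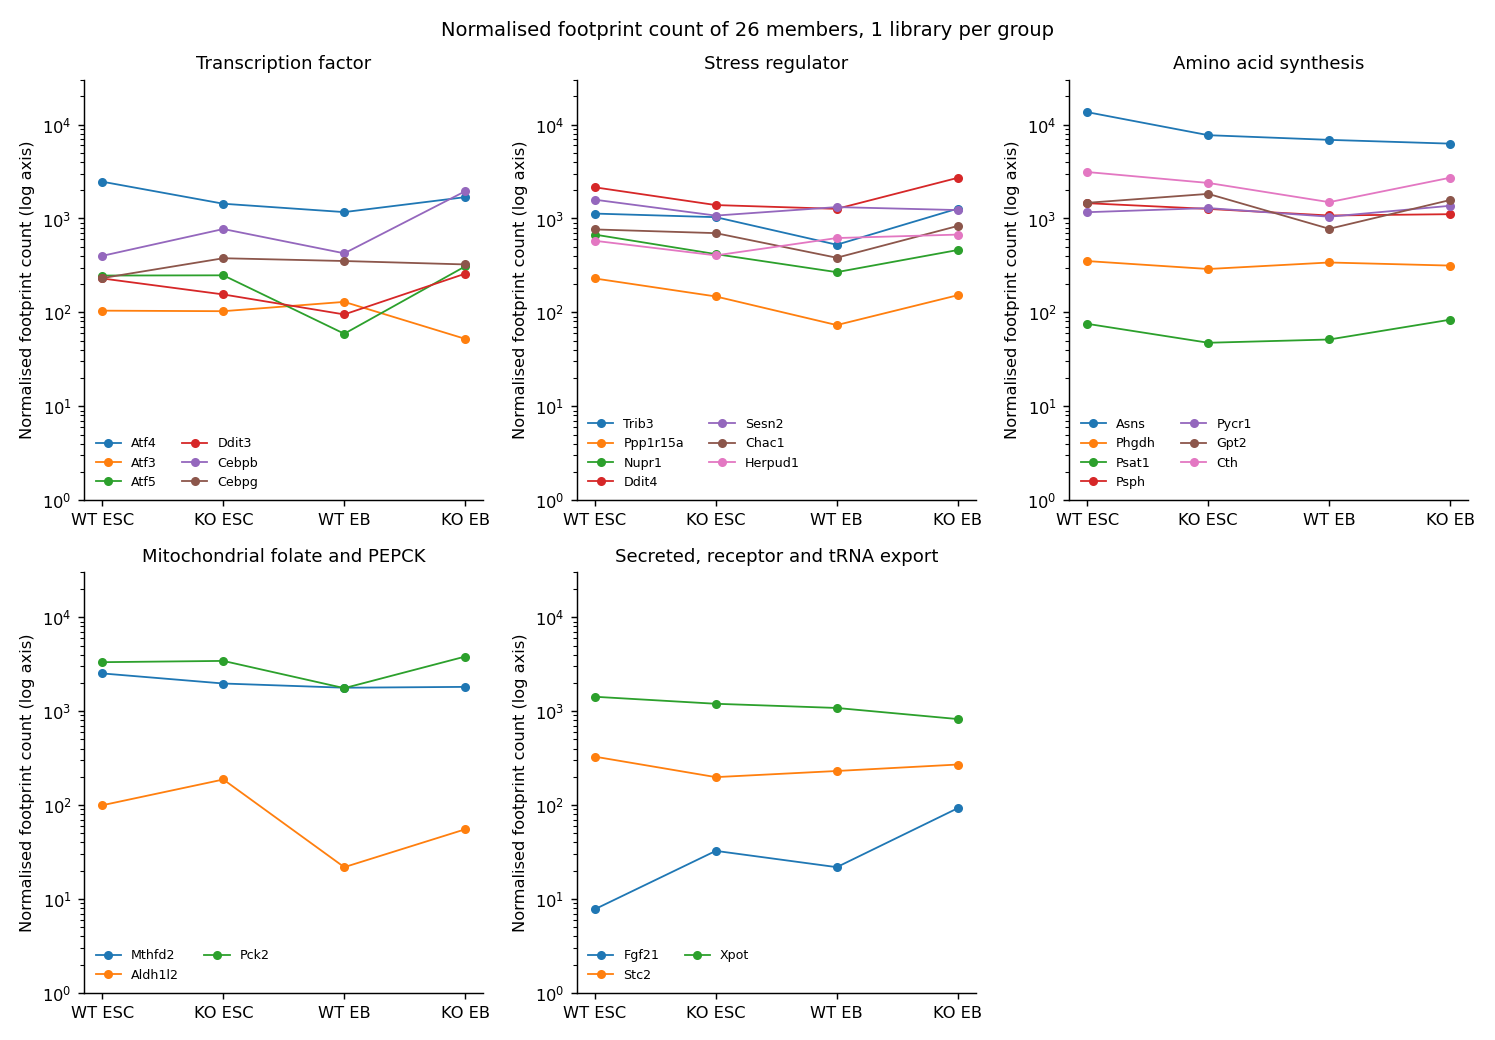
Normalised counts (y axis, log scale) of each measured member in the 4 libraries (x axis), 1 panel a role and 1 point a library; lines only join the points of a gene. WT EBs are the lowest of the 4 in 15 of 26 members, and KO EBs the highest in 11.

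In ESCs most members had somewhat lower footprint counts in KO than in WT. 18 of 26 were below 0 on the log2 scale of KO against WT, against 50.3% of all tested genes, and the median of the members was −0.26 against −0.00 for all genes. Log2 differences are of the normalised count plus 1. A difference of at least 2-fold was reached upwards by 1 member, Fgf21, against 10.6% of tested genes, and downwards by 0 members, against 4.42%. Fgf21 passed the filter only through the KO libraries, where it is high, so its call is a description and supports nothing. Without it 0 of 25 members reached 2-fold in ESCs and 10 of 25 were 2-fold or more higher in EBs. With libraries scaled to an equal total of gene reads the ESC median of the 26 was −0.14, with 3 at least 2-fold higher, and with a mean of at least 100 normalised counts 0 were. In EBs the members were mostly higher in KO: 20 of 26 lay above 0, against 46.5% of tested genes, with a median of 0.74 against −0.07. 11 members were at least 2-fold higher, against 15.2% of tested genes, and 1 was at least 2-fold lower, against 12.2%. 13 of 26 members were below 0 in ESCs and above 0 in EBs, against 15.9% of tested genes, and 9 of these were at least 1 log2 unit apart, against 6.40%.

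**Figure D3:**
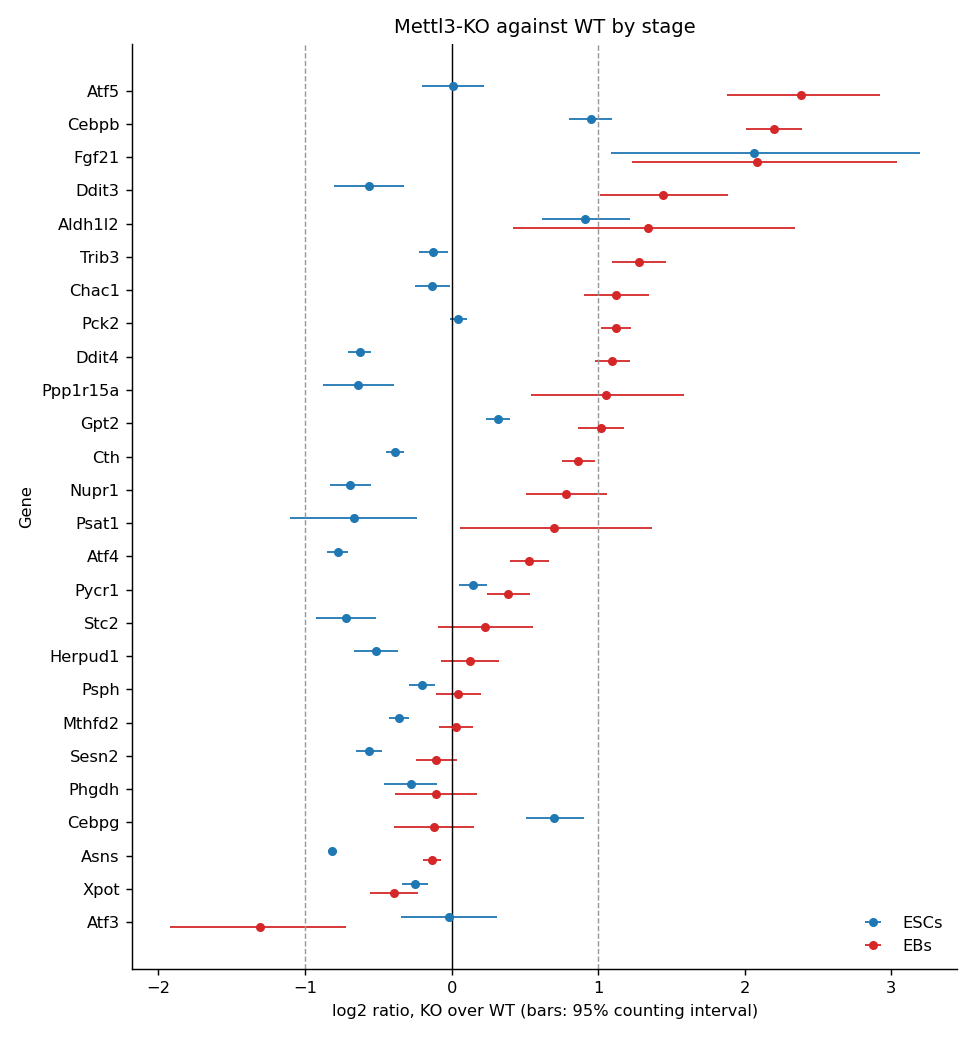
Log2 ratio of KO over WT for each measured member in ESCs and in EBs, with bars for the 95% counting interval and dashed lines at 2-fold. In EBs 11 members lie at or beyond 2-fold higher and Atf3 beyond 2-fold lower, whereas in ESCs only Fgf21 does.

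The transcription factors head the pathway, and in KO against WT EBs the 6 measured spanned −1.29 (Atf3) to 2.36 (Atf5) on the log2 scale. Atf4 (chr15:80255184-80257545), the regulator that names the response, measured 2462 and 1435 in WT and KO ESCs, and 1169 and 1687 in WT and KO EBs. WT ESCs were highest and WT EBs lowest. KO was 1.72-fold lower than WT in ESCs (95% counting interval 1.63 to 1.81) and 1.44-fold higher in EBs (1.31 to 1.58).

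Atf5 (chr7:44812256-44816658), a related factor whose mRNA is also held back by upstream reading frames, had WT and KO values of 247 and 248 in ESCs and of 59.2 and 309 in EBs. WT EBs stood apart from the other 3 libraries. KO was 5.22-fold higher than WT in EBs (3.68 to 7.58) and 1.01-fold in ESCs (0.870 to 1.16).

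Cebpb (chr2:167688915-167690432) encodes C/EBPβ, a dimer partner of ATF4, and was at 400.1 (WT) and 772 (KO) in ESCs and at 425 (WT) and 1949 (KO) in EBs. Both KO libraries were above both WT libraries. The KO to WT ratio was 1.93 in ESCs (1.74 to 2.14) and 4.58 in EBs (4.02 to 5.24). Ddit3 (chr10:127290793-127296291) encodes CHOP, the C/EBP-family factor of prolonged stress, and measured 229.6 and 155 in WT and KO ESCs, and 95.1 and 258 in WT and KO EBs. It was 1.48-fold lower in KO ESCs (1.25 to 1.75) and 2.72-fold higher in KO EBs (2.02 to 3.70).

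Atf3 (chr1:191170296-191183333), a stress-induced factor that can repress its targets, had its low value in KO EBs, with 104 and 103 in WT and KO ESCs against 129 and 52.2 in WT and KO EBs. It was 2.48-fold lower in KO than in WT EBs (1.65 to 3.79) and was the only member at least 2-fold lower there. Its promoter holds the core shown above. Cebpg, another dimer partner of ATF4, ranged from 232 in WT ESCs to 377 in KO ESCs and was 1.63-fold higher in KO ESCs (1.42 to 1.87). In EBs its KO to WT ratio was within counting error, 1.09-fold lower (0.899 to 1.32).

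Next come the regulators that ATF4 induces in stressed cells. All 7 were below 0 in KO against WT ESCs, with a median of −0.56, though with libraries scaled to an equal total of gene reads Trib3 and Chac1 lay within 0.01 of 0. In EBs 4 of the 7 were 2-fold or more above WT in KO, against 15.2% of tested genes, with a median of 1.05. Trib3, a pseudokinase that restrains ATF4, had WT and KO values of 1127 and 1032 in ESCs and of 525 and 1273 in EBs. WT EBs were the only low library, and KO EBs were 2.42-fold above them (2.13 to 2.76). Chac1 (chr2:119351242-119354326), which degrades glutathione, was at 764 (WT) and 698 (KO) in ESCs and at 382 (WT) and 831 (KO) in EBs, a 2.18-fold higher level in KO EBs (1.87 to 2.54). Ppp1r15a, the GADD34 subunit that brings the phosphatase to eIF2, measured 229.6 and 148 in WT and KO ESCs, and 73.3 and 152 in WT and KO EBs. It was 1.55-fold lower in KO ESCs (1.31 to 1.84) and 2.08-fold higher in KO EBs (1.46 to 3.00).

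Ddit4, an inhibitor of mTORC1 signalling, had WT and KO values of 2146 and 1389 in ESCs and of 1266 and 2706 in EBs. It was 1.55-fold lower in KO ESCs (1.46 to 1.63) and 2.14-fold higher in KO EBs (1.97 to 2.33). Nupr1, a small chromatin-associated stress protein, was at 673 (WT) and 417 (KO) in ESCs and at 268 (WT) and 461 (KO) in EBs. Its KO level was 1.61-fold lower in ESCs (1.46 to 1.78) and 1.72-fold higher in EBs (1.42 to 2.09), short of 2-fold in both. Sesn2, a leucine sensor upstream of mTORC1, and Herpud1, a factor of protein disposal at the endoplasmic reticulum, differed little in EBs. KO against WT gave 1.08-fold lower for Sesn2 (0.976 to 1.19) and 1.09-fold higher for Herpud1 (0.949 to 1.25), both within counting error.

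Among the enzymes of amino acid synthesis, 7 of 9 were measured. Of the 7, 1 was at least 2-fold higher in KO EBs, against 15.2% of tested genes. That gene was Gpt2, the mitochondrial alanine transaminase, at 1468 and 1827 in WT and KO ESCs and 776 and 1572 in WT and KO EBs, a ratio of 2.03 in EBs (1.82 to 2.26). Cth, which makes cysteine from cystathionine, measured 3121 and 2388 in WT and KO ESCs, and 1492 and 2715 in WT and KO EBs. It was 1.31-fold lower in KO ESCs (1.25 to 1.36) and 1.82-fold higher in KO EBs (1.68 to 1.97).

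Asns, asparagine synthetase and a much-used reporter gene of the response, behaved differently from these in EBs. It had WT and KO values of 13545 and 7703 in ESCs and of 6868 and 6262 in EBs, so that WT ESCs stood apart from the other 3 libraries. It was 1.76-fold lower in KO ESCs (1.72 to 1.80) and 1.10-fold lower in KO EBs (1.05 to 1.14). The 3 enzymes that turn a glycolytic intermediate into serine were all lower in KO ESCs. Phgdh, the first step, was 1.21-fold lower (1.07 to 1.38), Psat1, the second, 1.59-fold lower (1.18 to 2.14), and Psph, the last, 1.15-fold lower (1.08 to 1.22). In EBs only Psat1 lay outside counting error, at 51.4 in WT and 83.6 in KO, a ratio of 1.63 (1.04 to 2.58). Pycr1, the last enzyme of proline synthesis, was 1.31-fold higher in KO EBs (1.18 to 1.45) and 1.11-fold higher in KO ESCs (1.04 to 1.18).

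Of the mitochondrial folate enzymes and PEPCK, 3 of 5 were measured. Pck2, the mitochondrial phosphoenolpyruvate carboxykinase, was at 3323 (WT) and 3429 (KO) in ESCs and at 1758 (WT) and 3815 (KO) in EBs. WT EBs were again the low library, and KO EBs were 2.17-fold above them (2.02 to 2.33). Aldh1l2, which oxidises mitochondrial formyl-tetrahydrofolate, measured 99.6 and 187 in WT and KO ESCs, and 21.8 and 55.2 in WT and KO EBs. KO was higher in both stages, 1.88-fold in ESCs (1.53 to 2.32) and 2.53-fold in EBs (1.34 to 5.07). Mthfd2, the mitochondrial methylene-tetrahydrofolate dehydrogenase, was 1.28-fold lower in KO ESCs (1.22 to 1.34) and 1.02-fold higher in KO EBs (0.941 to 1.11).

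Fgf21, a hormone secreted under nutrient stress, had WT and KO values of 7.78 and 32.5 in ESCs and of 21.8 and 92.5 in EBs. In the order WT ESCs, KO ESCs, WT EBs, KO EBs these rest on 10, 61, 14 and 62 reads. KO was about as much higher in ESCs (4.18-fold, 2.13 to 9.15) as in EBs (4.24-fold, 2.35 to 8.20). Stc2, a secreted glycoprotein, was 1.65-fold lower in KO ESCs (1.43 to 1.90) and within counting error in EBs. Xpot, the nuclear export receptor of tRNA, was lower in KO in both stages, 1.19-fold in ESCs (1.12 to 1.26) and 1.31-fold in EBs (1.17 to 1.47).

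The stages were then compared within each genotype. From ESCs to EBs in WT, 21 of 26 members lay below 0, against 51.8% of tested genes, with a median of −0.65 against −0.02. 8 members were at least 2-fold lower in WT EBs, against 8.25% of tested genes, and 1, Fgf21, was at least 2-fold higher, against 11.0%. The 8 were Aldh1l2 (4.57-fold, 2.62 to 8.59), Atf5 (4.17-fold, 2.97 to 6.00), Ppp1r15a (3.13-fold, 2.30 to 4.36), Nupr1 (2.51-fold, 2.13 to 2.98), Ddit3 (2.42-fold, 1.83 to 3.24), Trib3 (2.15-fold, 1.90 to 2.42), Atf4 (2.11-fold, 1.94 to 2.28) and Cth (2.09-fold, 1.95 to 2.25). Chac1 lay at the limit itself. The ratio of its values was 2.00-fold lower (1.74 to 2.31), and the added 1 put it just inside. With a pseudocount of 0.5 in place of 1, 9 members were at least 2-fold lower, and with TMM factors 10 were. Asns lay just inside it (1.97-fold, 1.91 to 2.04). All 7 measured enzymes of amino acid synthesis were below 0.

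From ESCs to EBs in KO the members did not show this. 18 of 26 lay above 0, against 4347 of 9670 tested genes, with a median of 0.17 against −0.08 for all genes. 2 members were at least 2-fold higher, against 9.31% of tested genes. These were Fgf21 (2.84-fold, 1.96 to 4.12) and Cebpb (2.53-fold, 2.34 to 2.72). 1 was at least 2-fold lower, against 6.65%, namely Aldh1l2 (3.39-fold, 2.41 to 4.90). All 7 stress regulators lay above 0 in KO and 6 of the 7 below 0 in WT. The comparison of KO with WT EBs and that of WT EBs with WT ESCs share the WT EB library, so the low values of that 1 library enter both.

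**Figure D4:**
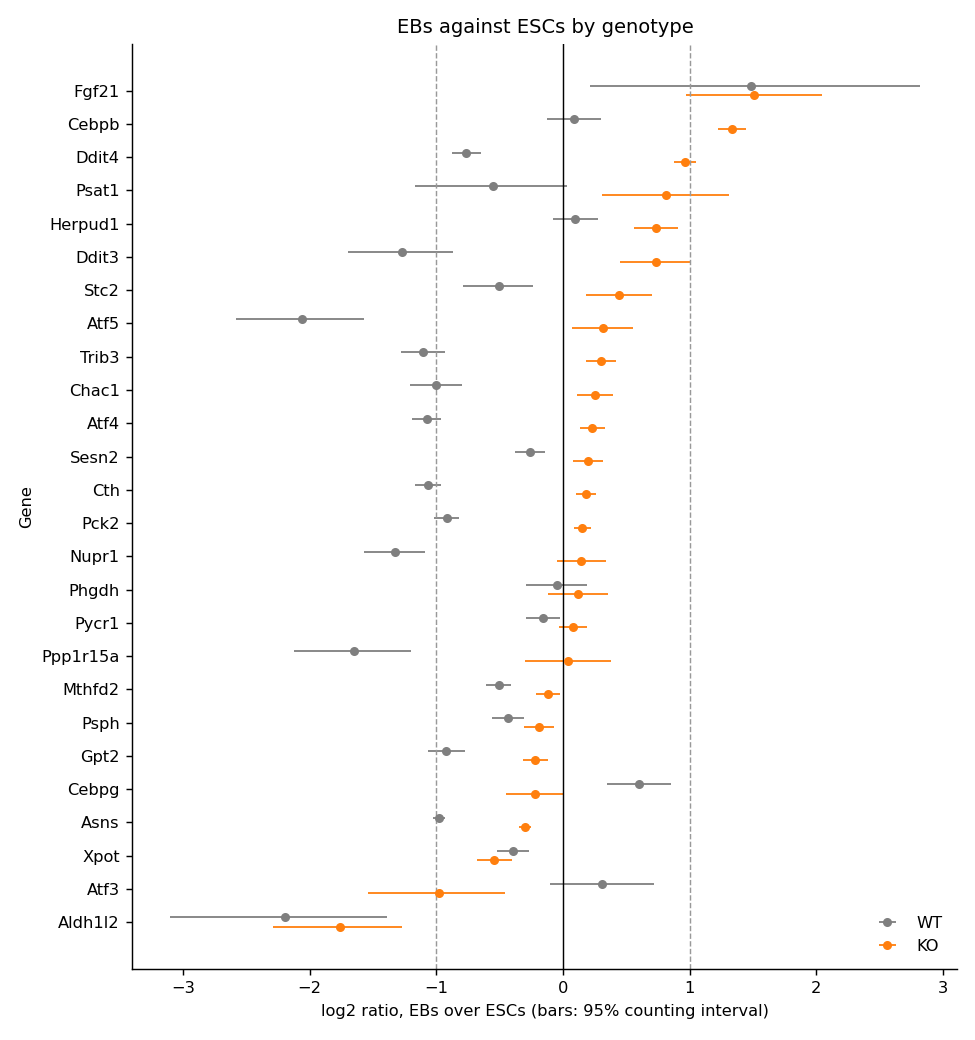
Log2 ratio of EBs over ESCs for each measured member in WT and in KO, with bars for the 95% counting interval and dashed lines at 2-fold. In WT 8 members lie beyond 2-fold lower, and in KO only Aldh1l2 does.

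The difference between the genotypes in the change from ESCs to EBs was taken as the KO log2 difference minus the WT one. It lay above 0 in 23 of 26 members, against 4417 of 9670 tested genes, with a median of 0.82 against −0.08 for all genes. 12 members were at least 1 log2 unit higher, against 11.4% of tested genes, and 1 was at least 1 log2 unit lower, against 12.5%. Atf5 had 2.36 (95% counting interval 1.84 to 2.92), Ddit3 1.99 (1.52 to 2.49), Ddit4 1.72 (1.58 to 1.87), Ppp1r15a 1.68 (1.14 to 2.24) and Nupr1 1.47 (1.17 to 1.78). Trib3, Psat1, Atf4, Cth, Chac1, Cebpb and Pck2 followed between 1.40 and 1.07. Atf3 was the 1 lower, at −1.27 (−1.94 to −0.64). Phgdh at 0.17 (−0.16 to 0.50), Xpot at −0.14 (−0.33 to 0.04), Aldh1l2 at 0.40 (−0.50 to 1.36) and Fgf21 at 0.10 (−1.26 to 1.30) were within counting error of 0. Counting error is not the error between cultures, which 1 library a group does not give. The difference was not particular to the members. All 10 measured naive pluripotency genes lay above 0, with a median of 1.01, and 5 were at least 1 log2 unit higher. Their KO against WT medians were −0.66 in ESCs and 0.47 in EBs. Of the ATF6 and XBP1 genes described below, 12 of 16 lay above 0, with a median of 0.58. Visceral endoderm genes went the other way, 14 of 15 lying below 0.

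**Figure D5:**
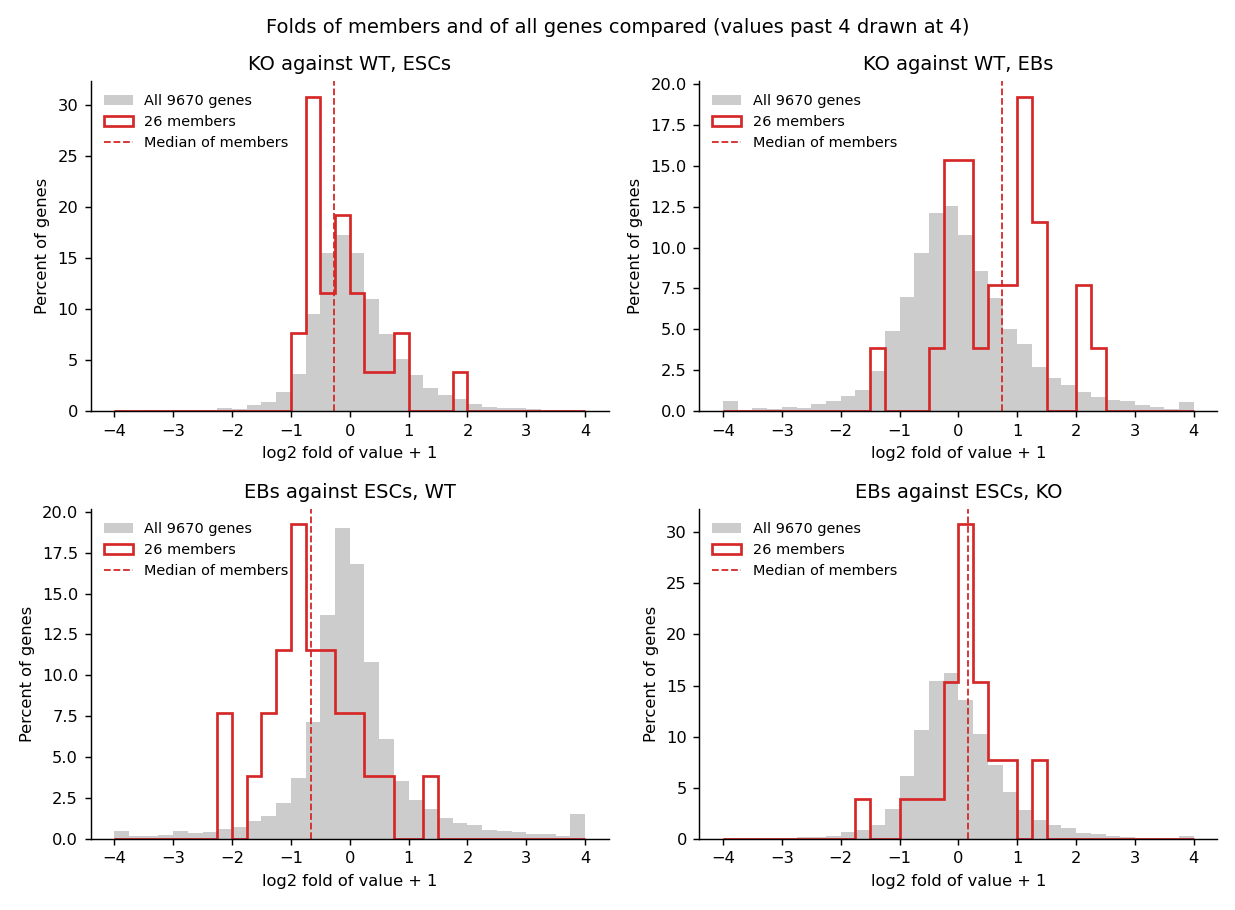
Percent of genes (y axis) by log2 difference (x axis) in each of the 4 comparisons, with grey bars for all tested genes, a red outline for the 26 measured members and a dashed line at the members' median. For KO against WT that median is −0.26 in ESCs and 0.74 in EBs, against −0.00 and −0.07 for all genes.

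A count test was run on the recovered reads with both stages, or both genotypes, standing in for replicates. For KO against WT over both stages, edgeR's quasi-likelihood test with Benjamini-Hochberg adjustment called 0 of 26 members and 0% of tested genes. 2 members had an unadjusted p under 0.05, Cebpb (edgeR adjusted p = 0.163) and Fgf21 (edgeR adjusted p = 0.220). DESeq2 called 1 member, Cebpb, higher in KO by 1.60 on the log2 scale (DESeq2 adjusted p = 0.00780), against 2.60% of tested genes called higher and 3.33% in either direction. For EBs against ESCs edgeR called 0 members, 2 having an unadjusted p under 0.05, against 0.259% of all tested genes called. The smallest adjusted p was 0.193 by edgeR and 0.103 by DESeq2, which also called 0 members against 3.88% of tested genes, both for Aldh1l2. Such a test asks for a shift of 1 sign in both stages, and 14 of 26 members lay on opposite sides of 0 in the 2 genotype comparisons. 13 of the 26 were below 0 in ESCs and above 0 in EBs, against 15.9% of tested genes.

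Members with and without the promoter core overlapped in their EB values. The 9 measured members with the core had a median KO against WT difference of 0.78 in EBs, with 4 at least 2-fold higher and 1 lower. Fgf21, which passed the filter only through the KO libraries, is among these 4. The 15 measured members with a window but no core had a median of 0.53, with 6 higher and 0 lower. Of all tested genes 15.2% were at least 2-fold higher in EBs and 12.2% lower. In ESCs the medians were −0.13 and −0.36. Atf5, Cebpb and Ddit3, 3 of the 4 members that were furthest above WT in KO EBs, have no core in this window, which says only that these letters are absent from it.

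Other genes around the pathway were read from lists that hold no member. These lists were chosen with earlier results of these data known, so their shares are a description and not an independent check. Of 15 eIF2 kinases, eIF2 and eIF2B subunits and their regulators, the KO EB library was 2-fold or more above WT in 1 and below it in 1. The shares of all tested genes were 15.2% and 12.2%, and the median of the 15 was 0.13. Those beyond 2-fold were the eIF2B subunits Eif2b4, from 7.79 to 34.3 between WT and KO (a ratio of 4.41, 1.64 to 14.8), and Eif2b3, from 165 to 55.2 (2.99-fold lower, 2.04 to 4.48). In ESCs 0 of the 15 reached 2-fold in either direction, against 10.6% of tested genes higher and 4.42% lower. Of 15 other reported ATF4 targets, 14 passed the filter, with a median of 0.46 in KO against WT EBs. 3 reached 2-fold above WT there and 0 below, against the same 15.2% and 12.2% of tested genes. Gdf15, a stress hormone of the TGF-β superfamily, was the highest, at 131 in WT and 1249 in KO EBs (9.54-fold, 7.62 to 12.1), and stood at 269 and 590.0 in WT and KO ESCs. Ero1a, a thiol oxidase of the endoplasmic reticulum, was the lowest, 1.73-fold lower in KO EBs (1.57 to 1.91).

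The ATF6 and XBP1 arm of the unfolded protein response raises chaperones of the endoplasmic reticulum. Of its 20 listed genes 16 were measured, as Hspa5, Dnajb11, Sel1l and Syvn1 did not pass the filter. Of the 16, 2 were 2-fold or more above WT in KO EBs and 0 below, with a median of 0.30. The shares of all tested genes were 15.2% and 12.2%. 10 of the 16 lay above 0 and 6 below. Xbp1 itself was the lowest, at 96.6 in WT and 55.2 in KO EBs (1.75-fold lower, 1.15 to 2.70). From ESCs to EBs in KO all 16 lay above 0, against 4347 of 9670 tested genes, with a median of 0.69. 4 of them were at least 2-fold higher, against 9.31%. In WT 12 of 16 lay above 0, against 4659 of 9670, with a median of 0.28. 2 were at least 2-fold higher, against 11.0%. Derl3, a factor of protein disposal at the endoplasmic reticulum, was the highest in both. Of other enzymes of folate, glycine, methionine and proline metabolism, 20 of 26 measured were below 0 in KO against WT EBs. Their median was −0.31, and 5175 of 9670 tested genes were below 0. 1 reached 2-fold above WT, against 15.2% of tested genes, and 2 below, against 12.2%. The measured members of amino acid synthesis had a median of 0.39. Among member enzymes Asns (−0.13), Phgdh (−0.11), Mthfd2 (0.03) and Psph (0.05) also lay near 0. Mtr, methionine synthase, was the lowest, at 1471 in WT and 482 in KO EBs (3.05-fold lower, 2.69 to 3.47), and Mtfmt, which formylates the mitochondrial initiator tRNA, the highest (2.12-fold, 1.73 to 2.60). Gldc, the glycine cleavage enzyme, was 4.86-fold higher in WT EBs than in WT ESCs (4.58 to 5.16).

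Markers of other cell types differed between the same EB libraries. Visceral endoderm genes were 2-fold or more below WT in KO EBs for 14 of 15 measured, against 12.2% of tested genes. Matrix genes were 2-fold or more above WT there for 10 of 12, against 15.2%. In ESCs, too, 11 of 12 matrix genes lay 2-fold or more above WT in KO, against 10.6%. The part of these cell types, of the naive genes and of the Y-linked difference in the members' values was not tested.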

How the data were processed

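Ribosome footprints (RNase I digestion, sucrose cushion, gel selection) were sequenced from 4 libraries, 1 a group, named by genotype and culture in their titles. Per the submitters' processing notes, the tools were DESeq, HTSeq 0.6.0, TopHat2 2.0.10, Bowtie and CASAVA 1.8.2, and the build was mm10 (GRCm38). Their settings, the annotation version and the handling of strand were not given in the sources used here. For each RefSeq coding sequence the authors deposited a normalised signal, the read count divided by a factor of its library. Divided by the worth of 1 read, 100% of values in every library came out whole (tolerance 0.01), which recovered the reads.

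Of 27442 entries 27200 were given a symbol (27083 from a RefSeq table, 117 from GENCODE tables) and summed to 20692 genes. The 5 summary rows that name no gene held 72.1% and 66.6% of reads in WT and KO ESCs and 68.7% and 71.6% in WT and KO EBs, and were left out. Within these, reads named as not uniquely aligned made up 55.7% and 48.4% of all reads in WT and KO ESCs and 51.7% and 53.1% in WT and KO EBs. In that order 1 read is worth 0.778, 0.533, 1.56 and 1.49 normalised counts.

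Folds are differences of log2(normalised count + 1), which understates folds of low genes, while printed ratios come from the values themselves. Ratio intervals are exact conditional binomial (Clopper-Pearson) and those of the difference between genotypes are Wald, both at 95% and for counting error only. PCR duplicates were not marked by molecular identifiers. With 1 library a group no main comparison has a test. Recovered reads were tested by edgeR 4.0.16 (quasi-likelihood) and DESeq2 1.42.0 in R 4.3.3 with terms for stage and genotype, adjusted over 9670 genes at 0.05; edgeR called 0 genes for genotype (1556 at an unadjusted p under 0.05) and DESeq2 251 higher and 71 lower. The scripts were tested on simulated data.

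Members and gene lists were chosen with earlier results of these data known. Values in every library are given for Atf4 and each member at least 2-fold apart in a comparison within 1 stage or genotype, and in the companion lists the highest and lowest gene may be named; Gldc and Derl3 are such genes. Asns and Psat1 are given for their role. Footprints were taken, as an assumption, to be 28 bases for the search of shared and copied sequence. Alternatives were other pseudocounts, filters and scalings, the count tests, and, chosen after seeing the data, the 21 members with little shared or copied sequence and the 25 without Fgf21.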

Additional observations from a re-analysis of the deposited data

Results flagged for a closer look

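In 9 members the KO and WT levels lay in opposite order in the 2 stages, KO being lower than WT in ESCs and higher in EBs, by at least 1 log2 unit between the stages, as in 6.40% of tested genes. The log2 difference of KO against WT in EBs minus that in ESCs was 1.99 for Ddit3, 1.72 for Ddit4, 1.68 for Ppp1r15a, 1.47 for Nupr1, 1.40 for Trib3, 1.35 for Psat1, 1.31 for Atf4, 1.25 for Chac1 and 1.25 for Cth. With libraries scaled to an equal total of gene reads, the ESC differences of Trib3 and Chac1 lay within 0.01 of 0. With 1 library a group the difference was not tested between cultures.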

How the results depend on the processing

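Of 116 alternative values of the main counts and medians, 95 stayed within the limits set for them, as did 740 of 760 alternative values of single members, of which 0 reversed a 2-fold difference. With a mean of at least 100 normalised counts, 22 members remained. Members at least 2-fold higher then numbered 0 in KO against WT ESCs, 0 in EBs against ESCs in WT and 1 in KO, and members at least 2-fold lower 0 in KO against WT EBs, 0 in EBs against ESCs in KO and 0 for the difference between genotypes. The medians were −0.84 for EBs against ESCs in WT and 1.01 for the difference. A pseudocount of 10 left 0 members higher in EBs against ESCs in WT. Scaling to an equal total of gene reads moved the median of all genes by 0.125 in KO against WT ESCs and 0.117 in EBs. The members' medians became −0.14 and 0.85, with 3 members at least 2-fold higher in ESCs. In EBs 11 were higher and 1 lower under each scaling. With the 21 members of little shared or copied sequence, an alternative chosen after seeing the data, the medians were −0.76 for EBs against ESCs in WT and 0.95 for the difference. Without Fgf21, which passed the filter only in the KO libraries (also chosen after seeing the data), members at least 2-fold higher numbered 0 in KO against WT ESCs, 0 in EBs against ESCs in WT and 1 in KO, with medians of −0.76 for WT and 0.95 for the difference. DESeq2 called 1 member higher in KO, where edgeR called 0. Within the last 150 bases before the start, 1 member had the cyclic AMP response element. The cause of these shifts was not tested, apart from the smaller number of members that a stricter filter or shorter window leaves.

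Over all genes, KO against WT EBs gave 1469 higher and 1177 lower, with a mean of at least 100 it gave 810 and 803, and without a filter 3100 and 2096. In ESCs these counts were 1024 and 427, 515 and 209, and 2090.0 and 1087. No paired analysis was possible because the labels carry no replicate numbers and each group is 1 library. Depth limits Fgf21, Aldh1l2, Psat1 and Atf3, whose intervals are wide.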
